A study of Mus musculus with 6 samples.

Results

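Endothelial transcription factors were followed in fetal mouse aortic arteries exposed to a NOD1 ligand in utero, in fetuses with and without a working Nod1 allele. The 10 genes were Klf2, Klf4, Erg, Fli1, Ets1, Sox7, Sox17, Sox18, Gata2 and Tal1. They were taken from the array by gene name, from probes that are not array controls, and the rule used no measured value. The genes, and the gene and marker lists set beside them below, were nevertheless chosen with earlier results of these data known. The 10 genes were read by 13 of the 55681 non-control probes and made up 10 of the 34797 gene names on the array and 10 of the 21478 genes that were tested. NOD1 is an intracellular receptor of the innate immune system that senses fragments of bacterial peptidoglycan, and FK565 is a synthetic ligand for it.

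All mice were C57BL/6. Nod1 -/- dams were mated with Nod1 +/- males, and each dam received 500 µg FK565 subcutaneously at E18.5, near the end of gestation. Aortic arteries were taken from the fetuses 6 h later. The 3 Nod1 +/- arrays come from heterozygous fetuses and the 3 Nod1 -/- arrays from homozygous null fetuses, which the study's design describes as littermates. Both genotypes therefore developed in a Nod1 -/- mother and both were exposed to the ligand, and no array from a dam without ligand is analysed here. The labels do not say which part of Nod1 is deleted, nor whether an array holds 1 fetus, so the p-values reflect variation among these samples, part of which may be technical. The sample is bulk vessel RNA, in which fewer cells of a type and less RNA per cell cannot be told apart.

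KLF2 and KLF4 are zinc-finger factors that laminar blood flow induces in endothelium and that restrain inflammatory activation and clotting. ERG, FLI1 and ETS1 belong to the ETS family, which binds a GGAA core found in the enhancers of most endothelial genes. SOX7, SOX17 and SOX18 are the SOXF group and act in arterial, venous and lymphatic specification, while GATA2 and TAL1 serve endothelium and blood progenitors alike. None of the 10 is restricted to endothelium: for example, GATA2 and TAL1 are also made in mast cells, and ETS1 and FLI1 in leukocytes.

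Values are log2 of the scanner's processed signal relative to the 75th percentile of the same array, so 0 means a signal at that percentile and 1 unit is a doubling. Between 48.6% and 58.4% of probes per array were well above background, the 75th percentile lay between 371.7 and 439.5 signal units, and the number of saturated spots was 0. Signals of different probes are not compared with each other. The Nod1 probe read 3.38 ± 0.35 (SD, n = 3) in Nod1 +/- and 3.25 ± 0.09 in Nod1 -/-; because its place relative to the deletion is not known, it does not check the genotype labels. Nod1 +/- replicate 1 held skeletal muscle RNA, with a mean marker level of 5.44 against 1.42 to 2.01 on the other arrays. A transcript of the inactive X chromosome, Xist, was high on Nod1 +/- replicates 1 and 3 and Nod1 -/- replicate 1.

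Klf2, Ets1 and Tal1 were higher in Nod1 +/- than in Nod1 -/- arteries, by 1.63-fold, 1.31-fold and 1.49-fold. The other 7 genes did not pass the test, and 0 of the 10 fell. All 10 were well above background on all 6 arrays with the probe that stands for the gene. The test was limma's moderated test over all 21478 genes with Benjamini-Hochberg adjustment, at a threshold of 0.05. The 3 higher genes are 30% of the 10, where 7.66% of all tested genes were called higher, 11.0% lower and 18.7% either way. The median difference was 0.21 over the 10 genes and -0.096 over all tested genes. Another centring of the arrays shifted every gene: on the array median, 1580 genes were called higher and 926 lower, with a median difference of 0.01, and relative to 13 pan-endothelial markers, 2983 higher and 710 lower, with a median of 0.16. The main split was 1646 higher and 2366 lower.

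**Figure D1:**
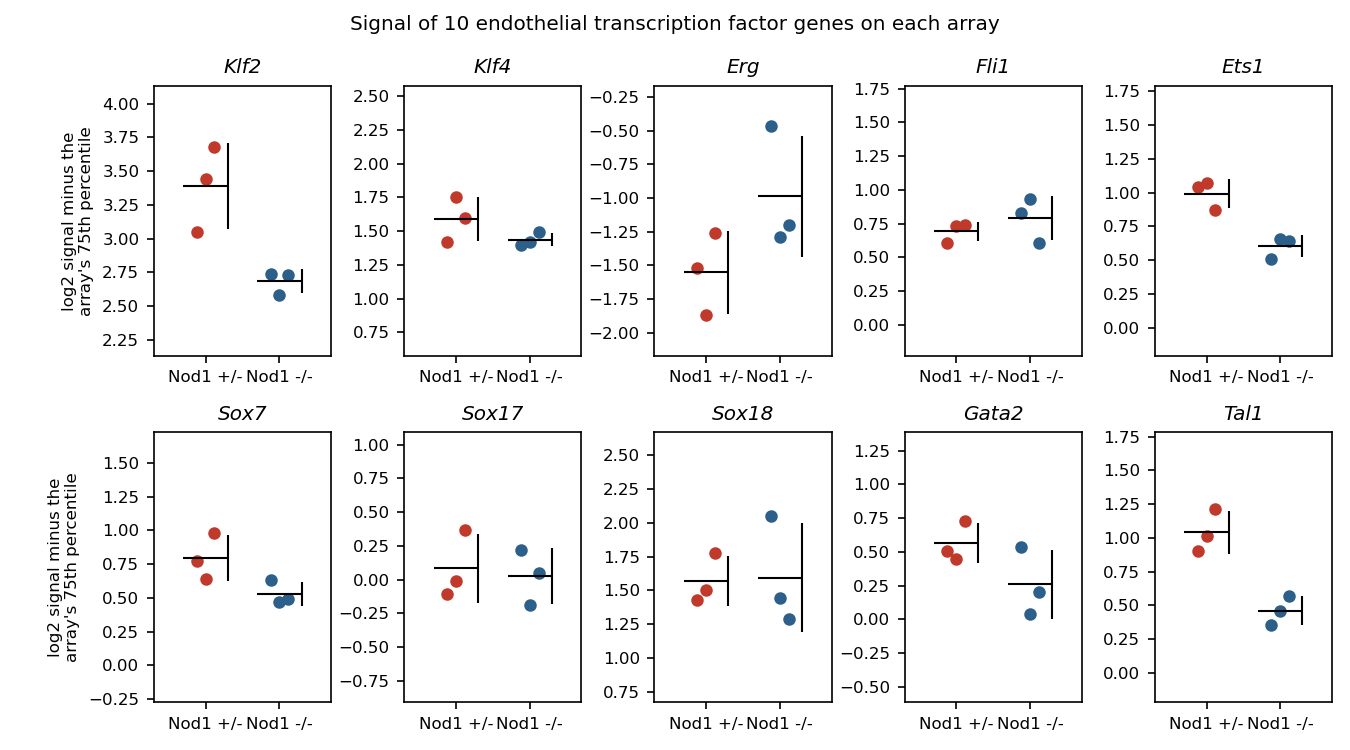
Level of each of the 10 genes on the 6 arrays, as log2 signal relative to the 75th percentile of the array; points are arrays, coloured by genotype, horizontal bars are genotype means and vertical bars 1 SD. Klf2, Ets1, Sox7 and Tal1 are the genes whose 3 Nod1 +/- points all lie above the 3 Nod1 -/- points, while Erg, Fli1, Sox17 and Sox18 interleave.

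In 4 of the 10 genes (40%), Klf2, Ets1, Sox7 and Tal1, the genotypes did not overlap, with every Nod1 +/- array above every Nod1 -/- array. Over all tested genes, 16.3% separated in that direction and 42.4% in either. Of the 10 differences, 7 were positive and 3 negative. The largest by size was that of Klf2, at 0.71, and the smallest that of Sox18, at -0.02.

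**Figure D2:**
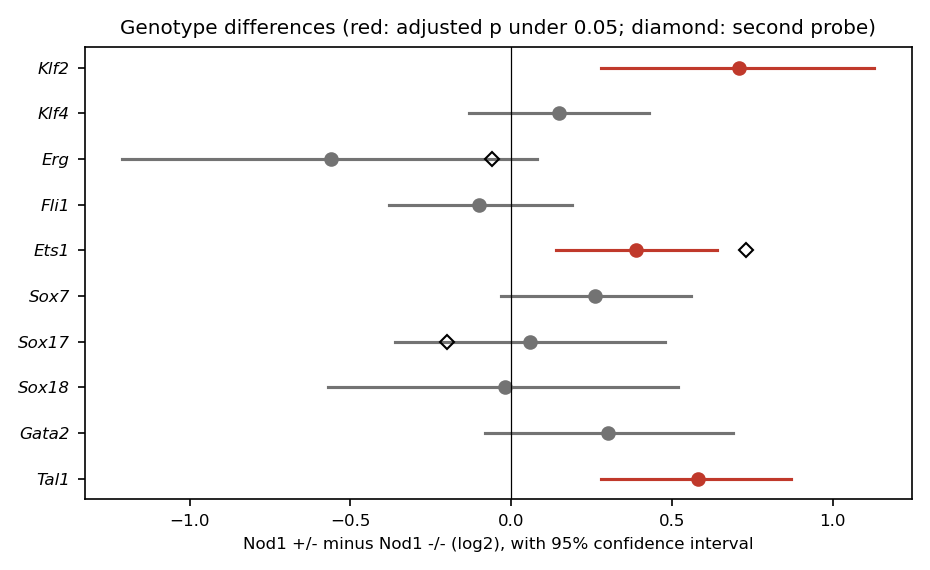
Difference between genotypes for each gene, Nod1 +/- minus Nod1 -/-, on the log2 scale with its 95% confidence interval from the limma fit; red marks an adjusted p under 0.05 and open diamonds are second probes. The intervals of Klf2, Ets1 and Tal1 lie wholly above 0 and pass the adjusted threshold; the interval of Erg, from -1.21 to 0.08, is the widest.

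The flow-responsive pair came first. The promoter of Klf2 is shown because it holds a match to the binding motif of MEF2, the factor through which the MEK5-ERK5 cascade acts on it. The promoter of Klf4 is shown for comparison, since it holds none. Both are the 250 bases before the RefSeq start on GRCm38.p6, 5′ to 3′ on the gene's strand, with every match to a searched motif in capitals.
Klf2 (chr8:72318812-72319061, + strand): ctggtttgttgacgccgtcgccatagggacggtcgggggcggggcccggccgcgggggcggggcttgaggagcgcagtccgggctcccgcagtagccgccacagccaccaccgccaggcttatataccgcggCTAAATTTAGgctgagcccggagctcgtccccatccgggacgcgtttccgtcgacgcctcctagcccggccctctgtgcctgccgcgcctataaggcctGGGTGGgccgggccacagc
Klf4 (chr4:55532476-55532725, - strand): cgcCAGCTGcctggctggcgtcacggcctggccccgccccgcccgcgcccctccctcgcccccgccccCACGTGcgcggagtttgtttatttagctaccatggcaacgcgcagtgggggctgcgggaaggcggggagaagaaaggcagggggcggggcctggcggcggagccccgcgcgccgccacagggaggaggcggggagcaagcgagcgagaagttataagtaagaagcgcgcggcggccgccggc
The MEF2 match in Klf2, CTAAATTTAG, lies 118 to 109 bases before the start, and a match to the KLF motif lies 19 to 14 bases before it. The capitals in Klf4, CAGCTG and CACGTG, are E-boxes, a class of letters bound by helix-loop-helix factors. Different factors of that kind prefer different E-boxes, and the search does not tell them apart. On both strands, 7 motifs were searched, and of 32851 promoters of that length 3.2% held the MEF2 motif and 1.21% the NF-kB motif. A KLF match (CCACCC) was in 28.1%, an E-box (CANNTG) in 66.2%, an ETS match (CCGGAAG) in 6.91%, a GATA match (AGATAA) in 9.99% and a SOX match (ACAAT) in 27.7%. The table held promoters for 5 of the 10 genes, Klf2, Klf4, Erg, Gata2 and Tal1, 9 promoters in all. Of these 9, 5 held no match to any of the 7 motifs, and no match in any of the 9 was to NF-kB or ETS. A match of letters is a description of the sequence and not a binding site.

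The Klf2 probe, at chr8:74845137-74845196 (mm9), read 3.05, 3.44 and 3.68 on the Nod1 +/- arrays and 2.74, 2.58 and 2.73 on the Nod1 -/- arrays. All Nod1 +/- arrays were above all Nod1 -/- arrays, and the spread was wider among the former. The means were 3.39 ± 0.32 and 2.68 ± 0.09 (SD, n = 3 each), a difference of 0.71 (SE 0.17, 95% confidence interval 0.28 to 1.13), or 1.63-fold (1.22 to 2.19), with limma's adjusted p = 0.0397. This call did not hold without Nod1 +/- replicate 2 (adjusted p = 0.107) or replicate 3 (0.56, adjusted p = 0.0675), nor without Nod1 -/- replicate 1, 2 or 3 (0.0983, 0.131 and 0.0801). It was also lost with slide row as a block (0.225), with Xist signal as a covariate (0.0909) and with no filter on dim probes (0.106).

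Klf4, at chr4:55540167-55540226 (mm9), read 1.42, 1.75 and 1.6 in Nod1 +/- and 1.40, 1.42 and 1.49 in Nod1 -/-. The genotypes overlapped, since Nod1 +/- replicate 1 lay within the Nod1 -/- values. The means were 1.59 ± 0.17 and 1.44 ± 0.05, and the difference of 0.15 (SE 0.12, 95% confidence interval -0.13 to 0.43) did not pass the test (adjusted p = 0.378). Klf4 is also made in smooth muscle and epithelium. Smooth muscle markers averaged 4.60 to 4.79 in Nod1 +/- and 4.36 to 4.8 in Nod1 -/-, and their part in the result was not tested.

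Of 13 other KLF family genes tested, 3 were higher and 1 lower (30.8% against 18.7% of all genes), with a median difference of 0.00. The count was 4 higher and 0 lower with median scaling, and 6 higher and 0 lower, with a median of 0.26, relative to pan-endothelial markers. Klf5, a factor of proliferating smooth muscle, was 1.99-fold higher (0.99, adjusted p = 0.0156), Klf6, an injury-induced family member, rose by 0.42 (adjusted p = 0.0306), and Klf9, a target of steroid hormone receptors, by 0.58 (adjusted p = 0.0458). Klf14 fell by 0.88 (adjusted p = 0.0276). The calls of Klf5, Klf6, Klf9 and Klf14 held in 16, 11, 9 and 10 of 21 other settings, and Klf5 was lost without Nod1 +/- replicate 1 (0.0527) or 2 (0.0533). Klf6 was lost without any single array (0.0575 to 0.106), Klf9 without any but Nod1 -/- replicate 3 (0.094 to 0.143), and Klf14 likewise (0.053 to 0.101).

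Of the genes listed upstream of Klf2 and Klf4, 2 of 12 tested were higher and 0 lower, 16.7% against 18.7% of all genes. The list joins the MEK5-ERK5 cascade with the cerebral cavernous malformation complex, and its count is not a measure of pathway activity. Heg1, the endothelial receptor that anchors the cerebral cavernous malformation complex, rose by 0.70 (adjusted p = 0.0153). Map3k3, the kinase that feeds MEK5, rose by 0.45 (adjusted p = 0.0234). The genes of MEK5 and ERK5 themselves, named here after their values were seen, did not pass the test: Map2k5 differed by -0.07 (adjusted p = 0.68) and Mapk7 by -0.15 (adjusted p = 0.606). Without Nod1 -/- replicate 1 or 2, Heg1 missed the threshold (0.0588 and 0.0596), and Map3k3 missed it without any single array but Nod1 +/- replicate 3 (0.0535 to 0.0833).

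Genes listed as regulated by KLF2 and KLF4 in endothelium came next. Of 23 tested, 4 were higher and 6 lower, 43.5% against 18.7% of all genes, with a median of -0.23. The 23 include Cnp, which is not an established target and differed by -0.61 without passing the test. Thbs1, for the anti-angiogenic matrix protein thrombospondin-1, was 3.10-fold higher, at 2.94 ± 0.10 against 1.31 ± 0.14 (1.63, adjusted p = 0.00111). Nqo1, an antioxidant enzyme, fell by 1.13 (adjusted p = 0.00197), and Tek, the TIE2 receptor of angiopoietins, fell by 1.92 (adjusted p = 0.00206). These 3 calls held in all 21 other settings.

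Among the best known KLF2-induced genes, named here after their values were seen, Thbd, the thrombin receptor thrombomodulin, fell by 0.52 (adjusted p = 0.0173), a call lost without replicate 1 or 2 of either genotype (0.0559 to 0.0673) and with median scaling (0.0871) or endothelial marker scaling (-0.26, 0.177). Nos3, endothelial nitric oxide synthase, read 2.93, 3.44 and 3.73 in Nod1 +/- and 3.88, 3.98 and 4.01 in Nod1 -/-. Its genotypes did not overlap, and the difference of -0.58 did not pass the test (adjusted p = 0.102). S1pr1, the sphingosine-1-phosphate receptor that KLF2 induces, rose by 0.67 (adjusted p = 0.00873). The S1pr1 call held in 19 of 21 other settings. It was lost with slide row as a block (0.57) and without the first replicates of both genotypes (0.60, adjusted p = 0.127). Relative to pan-endothelial markers, the list had 7 genes higher and 2 lower, with a median of 0.04.

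Among the ETS factors, Ets1 was higher in Nod1 +/- and neither Erg nor Fli1 passed the test. The representative Ets1 probe, at chr9:32564860-32564919 (mm9), read 1.04, 1.07 and 0.87 in Nod1 +/- and 0.51, 0.66 and 0.64 in Nod1 -/-. The genotypes did not overlap. The means were 1.0 ± 0.11 and 0.60 ± 0.08, a difference of 0.39 (SE 0.10, 95% confidence interval 0.14 to 0.64), or 1.31-fold (1.1 to 1.56), with adjusted p = 0.0464. The call was lost without Nod1 +/- replicate 1 or 2 (0.134 for each) and without Nod1 -/- replicate 1, 2 or 3 (0.146, 0.11 and 0.0817). It was also lost with median scaling (0.0842), slide row as a block (0.237), Xist as a covariate (0.0727) and no filter on dim probes (0.141), while normexp background correction gave 0.65 (adjusted p = 0.014).

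A second Ets1 probe lies 3034 bases from the first. It is shown because it gave the larger difference of the pair and its letters code for part of the DNA-binding domain that names the family.
Ets1 probe (chr9:32561826-32561885, mm9, + strand): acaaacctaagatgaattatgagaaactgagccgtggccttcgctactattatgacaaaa
It read 1.0, 1.14 and 1.29 in Nod1 +/- and 0.31, 0.26 and 0.66 in Nod1 -/-, again with no overlap. The means were 1.14 ± 0.14 and 0.41 ± 0.22, a difference of 0.73 with adjusted p = 0.0251 in the fit of every kept probe. In that fit the first probe had adjusted p = 0.0551, and the difference between the probes was not tested. With the mean of both probes the gene differed by 0.56 (adjusted p = 0.0171).

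Erg, regarded as the most endothelium-enriched ETS factor, was read at chr16:95581954-95582013 (mm9). It gave -1.52, -1.87 and -1.26 in Nod1 +/- and -0.47, -1.29 and -1.20 in Nod1 -/-. The genotypes overlapped, and Nod1 -/- replicate 1 was the highest array. The means were -1.55 ± 0.30 and -0.98 ± 0.45, and the difference of -0.56 (SE 0.27, 95% confidence interval -1.21 to 0.08) did not pass the test (adjusted p = 0.184). With Xist signal as a covariate it was -0.79 (adjusted p = 0.031), the only one of 21 settings in which Erg was called. Without Nod1 -/- replicate 1 the difference was -0.31 (adjusted p = 0.372), and with the mean of both probes it was -0.31 (adjusted p = 0.388). The second Erg probe, at chr16:95581811-95581870, was dim, well above background on 2 of 3 Nod1 +/- arrays, and differed by -0.06 (SE 0.43, adjusted p = 0.936).

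Fli1, the close relative of Erg, was read at chr9:32229857-32229916 (mm9) as 0.61, 0.73 and 0.74 in Nod1 +/- and 0.83, 0.93 and 0.61 in Nod1 -/-. The genotypes overlapped. The means were 0.69 ± 0.07 and 0.79 ± 0.16, with a difference of -0.10 (SE 0.12, 95% confidence interval -0.38 to 0.19, adjusted p = 0.585), which became 0.01 with median scaling and 0.16 relative to pan-endothelial markers.

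The rest of the ETS family had 7 of 17 tested genes higher and 2 lower, 52.9% against 18.7% of all genes, with a median of 0.24. Spic, among the lower, was well above background on 0 Nod1 +/- arrays, and Spib, among the higher, on 1 Nod1 -/- array, so each passed the filter through the genotype where it was high; among genes well above background on all 6 arrays, 6 of 15 were higher and 1 was lower. Etv6, a repressor needed for vascular and blood development, was 2.22-fold higher (1.15, adjusted p = 0.00316). Etv4, a target of fibroblast growth factor signalling, was 1.81-fold higher (0.86, adjusted p = 0.00521). Ets2, the nearest paralogue of Ets1, was 1.52-fold higher, at 3.59 ± 0.05 against 2.98 ± 0.04 (adjusted p = 0.00852), and Elk4, a partner of serum response factor, was 1.45-fold higher (0.53, adjusted p = 0.0139). Etv6 and Etv4 kept their calls in 20 of 21 other settings, Ets2 in 19 and Elk4 in 14; Elk4 was lost without replicate 1 or 2 of either genotype (0.052 to 0.0602). The same list holds leukocyte ETS factors, but Spi1 was not found on the array under that name and was not read. Spib and Spic, given above, changed in opposite directions. Elf1 (-0.02) and Elf4 (-0.25), named here after their values were seen, did not pass the test. Leukocyte markers had a mean level of 1.22 to 1.61 in Nod1 +/- and 0.30 to 1.0 in Nod1 -/-. Of 7 tested, 4 were higher (57.1%, against 7.66% of all genes). The calls of Cd52, Lcp1, Coro1a and Rac2 held in 18, 16, 12 and 12 of 21 other settings. The part of leukocytes in the result was not tested.

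Endothelial genes with ETS-driven enhancers changed in both directions in equal number, 6 higher and 6 lower of 24 tested, 50% against 18.7% of all genes, with a median of -0.11. Ptprb, the endothelial phosphatase VE-PTP, fell by 1.69, from 4.50 ± 0.06 in Nod1 -/- to 2.81 ± 0.20 in Nod1 +/- (adjusted p = 0.00135). Clec14a, an endothelial lectin, fell by 1.29 (adjusted p = 0.0046), as did Tek, given above with the KLF targets. Apln, the peptide made by sprouting tip cells, rose by 1.16 (adjusted p = 0.00395). Ptprb and Apln held in all 21 other settings and Clec14a in 19. Relative to pan-endothelial markers, some of which are also in this list, 7 were higher and 3 lower.

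**Figure D3:**
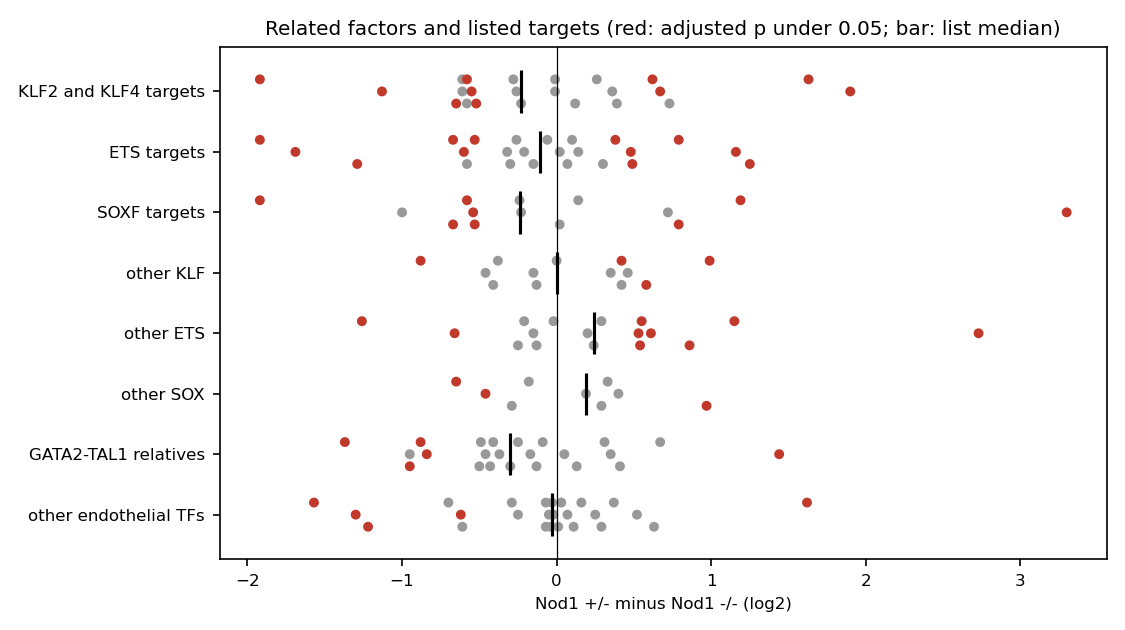
Differences between genotypes, Nod1 +/- minus Nod1 -/- on the log2 scale, for every tested gene of 8 related gene lists; points are genes, red where the adjusted p was under 0.05, and short bars are list medians. The lists of KLF, ETS and SOXF targets hold genes on both sides of 0, with Vcam1 highest at 3.30 and Tek lowest at -1.92 among the genes named in the text.

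Of the SOXF factors, Sox7, Sox17 and Sox18, none passed the test: 0 of 3 by limma. Sox7, at chr14:64569419-64569478 (mm9), read 0.77, 0.64 and 0.98 in Nod1 +/- and 0.63, 0.47 and 0.49 in Nod1 -/-. The genotypes did not overlap, by a margin of 0.64 to 0.63. The means were 0.79 ± 0.17 and 0.53 ± 0.09, a difference of 0.26 (SE 0.12, 95% confidence interval -0.03 to 0.56, adjusted p = 0.177), and in 21 other settings the lowest adjusted p was 0.0533.

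Sox17, the arterial member of the group, was read at chr1:4481503-4481562 (mm9) as -0.11, -0.01 and 0.37 in Nod1 +/- and 0.22, -0.19 and 0.05 in Nod1 -/-. The genotypes overlapped throughout. The means were 0.08 ± 0.25 and 0.03 ± 0.21, a difference of 0.06 (SE 0.17, 95% confidence interval -0.36 to 0.48, adjusted p = 0.838). The second Sox17 probe, at chr1:4481038-4481097, differed by -0.20 (adjusted p = 0.504), so the probes of this gene had opposite signs and neither was called.

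Sox18, which acts in lymphatic specification, was read at chr2:181404789-181404848 (mm9) as 1.43, 1.5 and 1.78 in Nod1 +/- and 2.05, 1.44 and 1.29 in Nod1 -/-. Nod1 -/- replicates 1 and 3 were the highest and the lowest of the 6 arrays. The means were 1.57 ± 0.19 and 1.6 ± 0.40, a difference of -0.02 (SE 0.22, 95% confidence interval -0.57 to 0.52, adjusted p = 0.947). Without Nod1 -/- replicate 1 the difference was 0.20. Lymphatic endothelial markers averaged 0.93 to 1.18 in Nod1 +/- and 0.81 to 1.18 in Nod1 -/- over 4 of 6 genes tested. Pdpn rose by 1.54 (adjusted p = 0.00105) and Lyve1 fell by 1.03 (adjusted p = 0.0203), 50% of those tested against 18.7% of all genes. The mean thus joins opposite changes, while Prox1 differed by -0.07 (adjusted p = 0.735). The Lyve1 call was lost without replicate 1 or 2 of either genotype (0.0515 to 0.0795), and Reln was not above background on any array.

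Among genes that SOXF factors are known to drive, 3 of 14 tested were higher and 5 lower, 57.1% against 18.7% of all genes, with a median of -0.23. The KLF, ETS and SOXF target lists share genes, so their counts overlap. Of the changed SOXF targets, Tek is in all of these lists, Gja4 is also in the KLF list, and Cldn5 and Robo4 are also in the ETS list. Vcam1, the leukocyte adhesion molecule, read 6.44, 6.47 and 6.25 in Nod1 +/- and 3.17, 3.22 and 2.88 in Nod1 -/-. The gap between genotypes was far wider than the spread within them, 9.83-fold (3.30, SE 0.13, adjusted p = 0.000279). Vcam1 is also induced by inflammatory signals through NF-kB. Tek, given above, fell by 1.92 (adjusted p = 0.00206). Rasip1, a regulator of vascular lumen formation, was 2.28-fold higher (1.19, adjusted p = 0.00263), and Gja5, the arterial connexin 40, fell by 0.54 (adjusted p = 0.0156). Vcam1, Tek and Rasip1 held in all 21 other settings and Gja5 in 12; Gja5 was lost without replicate 1 or 2 of either genotype (0.0565 to 0.0642) and with median scaling (0.0971). Relative to pan-endothelial markers, 3 of the list were higher and 1 lower, with a median of 0.03.

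In the other SOX genes, 1 of 9 tested was higher and 2 were lower (33.3% against 18.7% of all genes), with a median of 0.19. The count was 1 higher and 0 lower with median scaling, and 3 higher and 0 lower, with a median of 0.45, relative to pan-endothelial markers. Sox4, a SOXC factor of progenitor cells, was 1.96-fold higher, at 4.23 ± 0.22 against 3.26 ± 0.07 (adjusted p = 0.00734). Sox9, the chondrogenic factor, fell by 0.65 (adjusted p = 0.0312), and Sox12 by 0.46 (adjusted p = 0.0381). Sox4 was called in 19 of 21 other settings, Sox9 in 8 and Sox12 in 7. Sox9 was lost without any single array but Nod1 -/- replicate 1 (0.0566 to 0.0995), and Sox12 without any (0.0602 to 0.113).

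Tal1 was higher in Nod1 +/- arteries, and Gata2 did not pass the test. A promoter of Tal1, the 250 bases before the first of its RefSeq starts on GRCm38.p6, is shown because it holds a match to the GATA motif, the letters bound by the partner with which TAL1 acts; the match is in capitals and lies 205 to 200 bases before the start.
Tal1 (chr4:115056176-115056425, + strand): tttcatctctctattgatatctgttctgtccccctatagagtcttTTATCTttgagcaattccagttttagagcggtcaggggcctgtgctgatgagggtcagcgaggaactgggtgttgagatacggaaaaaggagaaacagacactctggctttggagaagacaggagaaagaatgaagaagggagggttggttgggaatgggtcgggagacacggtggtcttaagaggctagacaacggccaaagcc
The Tal1 probe, at chr4:114744219-114744278 (mm9), read 0.90, 1.01 and 1.21 in Nod1 +/- and 0.35, 0.46 and 0.57 in Nod1 -/-. The lowest Nod1 +/- array stood well clear of the highest Nod1 -/- array. The means were 1.04 ± 0.16 and 0.46 ± 0.11, a difference of 0.58 (SE 0.12, 95% confidence interval 0.28 to 0.87), or 1.49-fold (1.22 to 1.83), with adjusted p = 0.025. The call was lost without Nod1 +/- replicate 2 (0.0693) and without Nod1 -/- replicate 1 or 2 (0.0869 and 0.087). It was also lost with slide row as a block (0.188), Xist as a covariate (0.0619) and no filter on dim probes (0.0818).

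Gata2, at chr6:88156362-88156421 (mm9), read 0.51, 0.45 and 0.73 in Nod1 +/- and 0.54, 0.04 and 0.20 in Nod1 -/-. Nod1 -/- replicate 1 lay within the Nod1 +/- values and the other two Nod1 -/- arrays below them. The means were 0.56 ± 0.15 and 0.26 ± 0.25, a difference of 0.30 (SE 0.16, 95% confidence interval -0.08 to 0.69, adjusted p = 0.223), and the lowest adjusted p in 21 other settings was 0.0576.

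Partners and relatives of GATA2 and TAL1 had 1 of 23 tested genes higher and 4 lower, 21.7% against 18.7% of all genes, with a median of -0.30. Id2, which encodes an inhibitor that sequesters the helix-loop-helix partners of TAL1, was 4.09 ± 0.16 in Nod1 -/- and fell by 1.37 to 2.72 ± 0.06 in Nod1 +/- (adjusted p = 0.00174). Id1 and Id3, which encode inhibitors of the same kind, fell by 0.84 (adjusted p = 0.00422) and by 0.88 (adjusted p = 0.00815). Runx1, the factor of blood emergence from endothelium and of leukocytes, was 2.70-fold higher (1.44, adjusted p = 0.0104). Lyl1, the nearest paralogue of Tal1, and Lmo2, which bridges TAL1 to GATA factors, are named after their values were seen; they differed by -0.50 (adjusted p = 0.0758) and -0.37 (adjusted p = 0.0956) and did not pass the test. Id2 held in all 21 other settings, Id1 in 20, and Id3 in 19; Runx1 held in 20, and was lost without Nod1 -/- replicate 2 (0.05).

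Because GATA2 and TAL1 are also made by blood cells, markers of those cells were read on the same arrays. Mast cell markers averaged 2.50 to 2.62 in Nod1 +/- and 1.85 to 2.71 in Nod1 -/-, with Kit and Hdc, 2 of 7 tested, higher (28.6% against 18.7% of all genes changed). Cpa3, Mcpt4 and Cma1, which encode mast cell proteases, differed by -0.10, -0.16 and -0.19 and did not pass the test. Erythroid markers averaged -0.48 to 0.10 and 0.29 to 0.83, and megakaryocyte and platelet markers -0.68 to -0.15 and 0.10 to 0.19. Of the 7 tested platelet markers, Gp1ba, Gp9 and Treml1 were lower and Ppbp was higher (2.41, adjusted p = 0.00263), 57.1% changed against 18.7% of all genes. Of the 7 erythroid markers Epor was lower, 14.3% against 18.7%. Without Nod1 -/- replicate 2, Kit (0.0534), Gp9 (0.0611), Treml1 (0.056) and Epor (0.0766) missed the threshold, Epor also without replicate 1 of either genotype (0.0629 and 0.0633), and Hdc missed it without any array but Nod1 -/- replicate 1 (0.0609 to 0.109). Ms4a2 and Rhag were not above background on any array. The part of these cells in the Tal1 and Gata2 values was not tested.

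Other endothelial transcription factors had 1 of 25 tested genes higher and 4 lower, 20% against 18.7% of all genes, with a median of -0.03. The changed genes with the smallest p included Hey1, a Notch-induced repressor, which fell by 1.57 (adjusted p = 0.00157), and its relatives Hey2, which fell by 1.22 (adjusted p = 0.00264), and Heyl, which fell by 1.30 (adjusted p = 0.00464). Bcl6b, an endothelial repressor, was 3.08-fold higher (1.62, adjusted p = 0.00222). Hey1, Heyl and Bcl6b held in all 21 other settings and Hey2 in 20.

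Endothelial RNA was present on every array: 13 of 13 pan-endothelial markers were well above background on all 6. Their mean level was lower in Nod1 +/- (2.44 to 2.69) than in Nod1 -/- (2.78 to 2.93), with Ecscr higher and Ramp2, Clec14a, Tie1 and Cldn5 lower (38.5% against 18.7% of all genes changed). The markers did not all move the same way: 5 differences were positive and 8 negative, with a median of -0.21. Cdh5, at 0.30, did not pass limma's test (adjusted p = 0.0766). Ecscr was lost without any single array (0.0608 to 0.125), Tie1 without any but Nod1 +/- replicate 2 (0.0637 to 0.112) and Cldn5 without any but Nod1 +/- replicate 3 (0.0514 to 0.117). Relative to these markers, the difference was 0.97 for Klf2 (adjusted p = 0.00855), 0.84 for Tal1 (0.012) and 0.65 for Ets1 (0.0298). On that scale Gata2 differed by 0.57 (0.0576), Sox7 by 0.52 (0.0533), Klf4 by 0.41 (0.0659), Sox17 by 0.32, Sox18 by 0.24, Fli1 by 0.16 and Erg by -0.30. This scaling adds the same amount to every gene's difference, so it raises all 10 alike. The 3 genes called were again Klf2, Tal1 and Ets1.

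Neutrophil markers averaged 1.62 to 2.46 in Nod1 +/- and -1.06 to -0.76 in Nod1 -/-, with 7 of 8 higher (87.5%, where 7.66% of all tested genes were higher). Of these 7, Cxcr2 was well above background on 0 Nod1 -/- arrays and passed the filter through Nod1 +/- alone. Macrophage markers averaged 2.05 to 2.31 and 2.04 to 2.92, with 0 of 9 higher and 2 lower (22.2% against 18.7% of all genes changed). The 2 were Cx3cr1 (-2.05, adjusted p = 0.00446) and Csf1r (-0.96, adjusted p = 0.0295). Csf1r was lost without any single array but Nod1 -/- replicate 3 (0.0587 to 0.101). Fibroblast markers averaged 5.58 to 5.66 and 5.90 to 6.09, with Dcn, Lum and Ogn, 3 of 8, lower (37.5% against 18.7%). The Dcn call held in 14 of 21 other settings. It was lost without Nod1 -/- replicate 1 or 2 (0.0511 and 0.0506) and with median scaling (0.0899) or endothelial marker scaling (0.162). Schwann cell markers averaged -0.25 to 0.10 and 0.79 to 1.41, with S100b and Fabp7, 2 of 4, lower (50% against 18.7%). Sympathetic neuron markers averaged -1.86 to -0.13 and -0.98 to 1.92; the differences of all 7 were negative and 0 passed limma's test. Klf2 and Ets1 are also made in leukocytes, and the part of neutrophils and other leukocytes in their values was not tested.

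**Figure D4:**
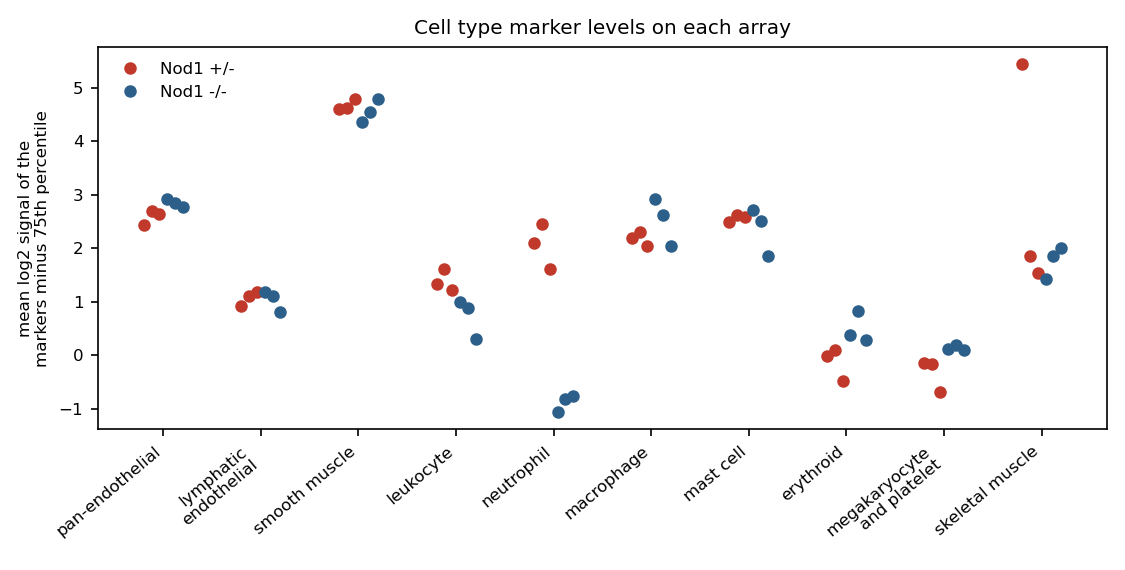
Mean log2 level of 10 cell-type marker lists on the 6 arrays, relative to the 75th percentile of the array; points are arrays, coloured by genotype. Neutrophil markers lie between 1.62 and 2.46 in Nod1 +/- and between -1.06 and -0.76 in Nod1 -/-. The mean of the pan-endothelial markers is lower in Nod1 +/-, though not every marker is. The single high skeletal muscle point is Nod1 +/- replicate 1.

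For each gene, the tested gene whose 6 values were most like its own was found by Pearson's r, as a description over 6 arrays that share the genotype difference. Ets1 was most like Ngp, a neutrophil granule protein (r = 0.999), which was itself higher in Nod1 +/- (2.16, adjusted p = 0.00909), and 1008 genes had r above 0.9 with Ets1. This likeness is that of the representative Ets1 probe only. Among the Nod1 +/- arrays that probe was lowest on replicate 3 (0.87), where the second Ets1 probe was highest (1.29). Klf2 was most like Zbtb7b (r = 0.996, with 964 genes above 0.9) and Tal1 most like Arfrp1 (r = 0.998, with 1397). Neither Zbtb7b (0.17, limma's adjusted p = 0.242) nor Arfrp1 (0.31, adjusted p = 0.0752) passed the test. For Klf4 the nearest was an unnamed Ensembl transcript (r = 0.996). Erg was nearest to Lrrc16b (0.989), Fli1 to Capns1 (0.993), Sox7 to Nlrp5 (0.993), Sox17 to Dtx2 (0.987), Sox18 to Ppp1r2 (0.975) and Gata2 to G530011O06Rik (0.987).

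**Figure D5:**
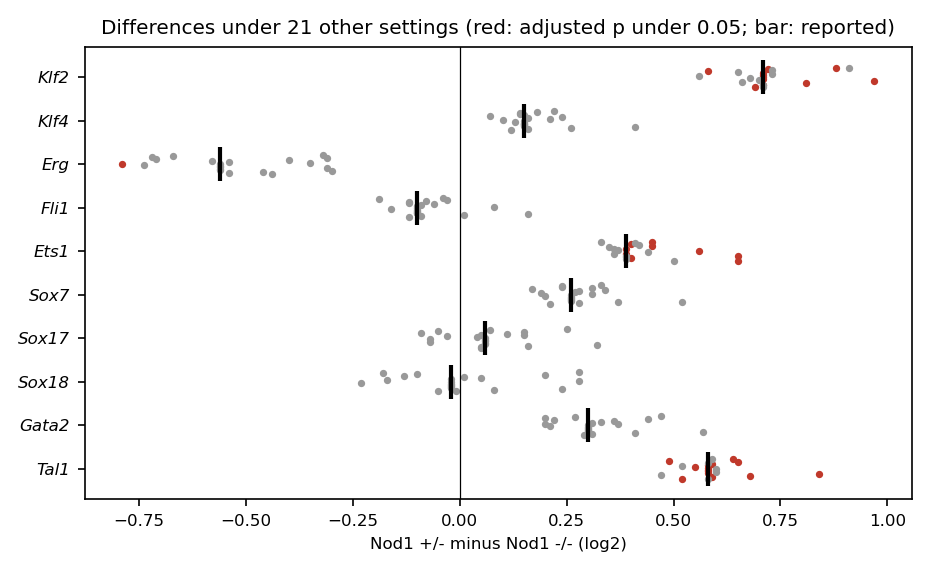
Difference between genotypes for each of the 10 genes under the main setting and 21 other settings, on the log2 scale, Nod1 +/- minus Nod1 -/-; each point is another setting, red where the adjusted p was under 0.05, and the black bar is the reported value. Klf2, Ets1 and Tal1 stay above 0 in every setting and were called in 11, 9 and 14 of the 21; Fli1, Sox17 and Sox18 cross 0.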

How the data were processed

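The 10 genes, the related gene lists and the marker lists were chosen with earlier results of these data known. Total RNA was extracted with TRIzol, amplified and labelled with Cy3 in a 1-colour low-input protocol, per the labels' protocols. Per the headers of the deposited scanner files, their intensity values come from Feature Extraction 10.7.1.1, Agilent's software; the submitters' processing notes name 9.5.1.1. The intensity used is the processed signal, which the authors' software had already background-subtracted. The deposited value table, a linear intensity with a median of 33.4 in every column, was used as an alternative only; its normalization is not given in the sources used here. All 6 arrays share 1 slide and 1 scan time; Nod1 -/- replicates 1 and 2 lie in slide row 1 and the other 4 arrays in row 2, so a block on row compares Nod1 +/- with Nod1 -/- replicate 3.

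Spots flagged as outliers and control spots were left out, spots of a probe were averaged as log2 intensity, and each array's 75th percentile over the deposited non-control probes was subtracted. Probes well above background on at least 3 of 6 arrays were kept (30166 probes), and the kept probe with the highest mean stood for a gene. limma 3.58.1 in R 4.3.3 (lmFit and eBayes) compared Nod1 +/- with Nod1 -/-, n = 3 each, with Benjamini-Hochberg adjustment over 21478 genes and a threshold of 0.05. The number of arrays limits the precision. Genes named from a list are its changed members with the smallest p, up to 4, unless stated otherwise; 1 such gene is not reported here. List genes have no set test. The fit was tested on simulated data. Alternatives changed the background correction, scaling, dim-probe filter, probe choice, variance prior, array weights, blocks, covariate, value source and arrays. Probe positions are mm9 from the scanner files; promoters are RefSeq's on GRCm38.p6.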

Additional observations from a re-analysis of the deposited data

How the results depend on the processing

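Precision rests on 3 arrays per genotype, and 21 other settings were run. Klf2 (0.56 to 0.97), Ets1 (0.33 to 0.65) and Tal1 (0.47 to 0.84) kept a positive difference in all 21 and passed the threshold in 11, 9 and 14. The count of changed genes over the array, 4012 in the main setting, was 2506 with median scaling, 1636 with no filter on dim probes, 1033 with slide row as a block, 2281 with Xist signal as a covariate, 641 without the first replicates of both genotypes, and 1459 to 3387 with 1 array left out. The count of higher genes among the 10 was 0 with no filter, with slide row as a block, with Xist as a covariate and without both first replicates, 1 with the replicate block, and 0 to 2 with 1 array left out; 1 gene, Erg, was lower with Xist as a covariate. Same-numbered arrays deviated together with correlations of 0.08, 0.28 and 0.11, so the replicate numbers were not taken as a pairing; with the replicate block the array-wide count was 4040, Tal1 was called (adjusted p = 0.0281), and Klf2 (0.0605) and Ets1 (0.0681) were not. Signs reversed only in genes that were not called. Fli1 was 0.01 with median scaling, 0.16 relative to endothelial markers and 0.08 with slide row. Sox18 was 0.08, 0.24 and 0.28 in those settings, 0.05, 0.01 and 0.20 without Nod1 +/- replicate 1, Nod1 +/- replicate 2 and Nod1 -/- replicate 1, 0.28 without both first replicates, and -0.18 at the lowest with 1 array left out. Sox17 was -0.07 with the mean of its probes, -0.07 with array weights, -0.03 with Xist as a covariate, -0.09 without Nod1 +/- replicate 3 -0.05 without Nod1 -/- replicate 2, and 0.15 at the highest with 1 array left out. The cause was not tested.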
